A study of Mus musculus with 6 samples.

Results

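The 10 genes described here are Pla2g4a, Ptgs1, Ptgs2, Ptges, Tbxas1, Ptger2, Ptger4, Alox5, Alox5ap and Lta4h, which act in the synthesis of prostaglandins, thromboxane and leukotrienes or receive the prostaglandin E2 signal. They were taken by name. Each was found once among the 55335 rows of the gene count table, by its Ensembl identifier and the GENCODE M21 symbol that belongs to it. All 10 passed edgeR's filter on low counts, which kept 15687 genes for testing.

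Eicosanoids are short-lived lipid signals made from arachidonic acid, a fatty acid held in membrane phospholipids. Cytosolic phospholipase A2 frees it, cyclooxygenases turn it into prostaglandin H2, and dedicated synthases then make prostaglandin E2 or thromboxane. In the other branch, 5-lipoxygenase and its helper protein FLAP make leukotriene A4, which Lta4h hydrolyses to leukotriene B4. Macrophages are a well-known source of both kinds of lipid, and cyclooxygenase-2 is a classic inducible enzyme of inflammation.

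The samples were bone marrow-derived macrophages (BMDMs), and the library names mark all 6 as wild type (WT). The cells were grown from C57BL/6 mouse bone marrow in medium conditioned by L929 cells. This mouse fibroblast line is used as a source of macrophage growth factor. Cultures were given PBS (the control without LPS) or LPS, the bacterial lipopolysaccharide that activates Toll-like receptor 4, and were collected after 1 h, with 3 libraries of total RNA per group, numbered 1 to 3. The study's methods describe its mice as young adult males, which the labels do not repeat. The labels give no LPS dose and do not say whether the 3 replicates came from separate animals or cultures, so p-values measure the spread between these libraries, which may be technical. The comparison asks which of these transcripts differed between stimulated and control cells at this early time. Libraries held 39197666 to 41516330 counts in the PBS group and 37787611 to 39053424 in the LPS group. Levels are given as normalised CPM, which are counts divided by the library total (CPM) and by the TMM factor of edgeR. These factors were 1.15 in the PBS libraries and 0.864 to 0.872 in the LPS libraries, so the choice of scaling enters every fold change. Mitochondrial transcripts made up 0.970% to 1.07% of counts in PBS and 1.21% to 1.34% in LPS libraries, and the part of this difference in the results was not tested. The early LPS response genes Tnf, Il1b, Il6, Nfkbia, Cxcl2 and Tnfaip3 all rose in the libraries labelled LPS, by log2 fold changes of 4.79 for Nfkbia to 11.77 for Il1b. Summed over 8 macrophage markers, the level was 30311 to 31589 CPM in PBS and 33041 to 33351 CPM in LPS libraries. Most of this sum came from Lyz2, with means of 23259 CPM in PBS and 24210 CPM in LPS. No macrophage marker passed both of the criteria given below. By the adjusted p alone, 5 were higher and 1, Fcgr1, was lower, with a log2 fold change of -0.48.

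Genes were counted as changed when edgeR's quasi-likelihood test gave an adjusted p under 0.05 and the log2 fold change was above 1 or below -1. By these criteria 3 of the 10 genes rose with LPS and 0 fell. Over all tested genes, 10.5% rose and 10.4% fell, 20.9% in either direction. The split was 1653 higher and 1624 lower, and with libraries scaled by their size alone it was 1213 higher and 2962 lower. The 3 that rose were Ptgs2, Ptger4 and Ptges, which respectively encode cyclooxygenase-2, the EP4 receptor for prostaglandin E2 and the microsomal synthase that makes prostaglandin E2. Without the fold criterion, 7 of the 10 genes were higher at an adjusted p under 0.05, 0 were lower and 3 did not pass, whereas 32.9% of all tested genes were higher and 34.9% lower, 67.7% in either direction. This count depends on the scaling: with library size alone 5 of the 10 were higher and 4 lower (Ptgs1, Tbxas1, Alox5ap and Lta4h), and with upper quartile scaling 5 were higher and 3 lower (Ptgs1, Tbxas1 and Lta4h). The median log2 fold change was 0.53 over the 10 genes and -0.01 over all tested genes. By branch, 2 of 5 genes of prostanoid synthesis (from Pla2g4a to Tbxas1), 1 of 2 receptors and 0 of 3 leukotriene genes passed both criteria. In bulk RNA, fewer cells of a type and less RNA per cell cannot be told apart, and this holds for every level given here.

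**Figure D1:**
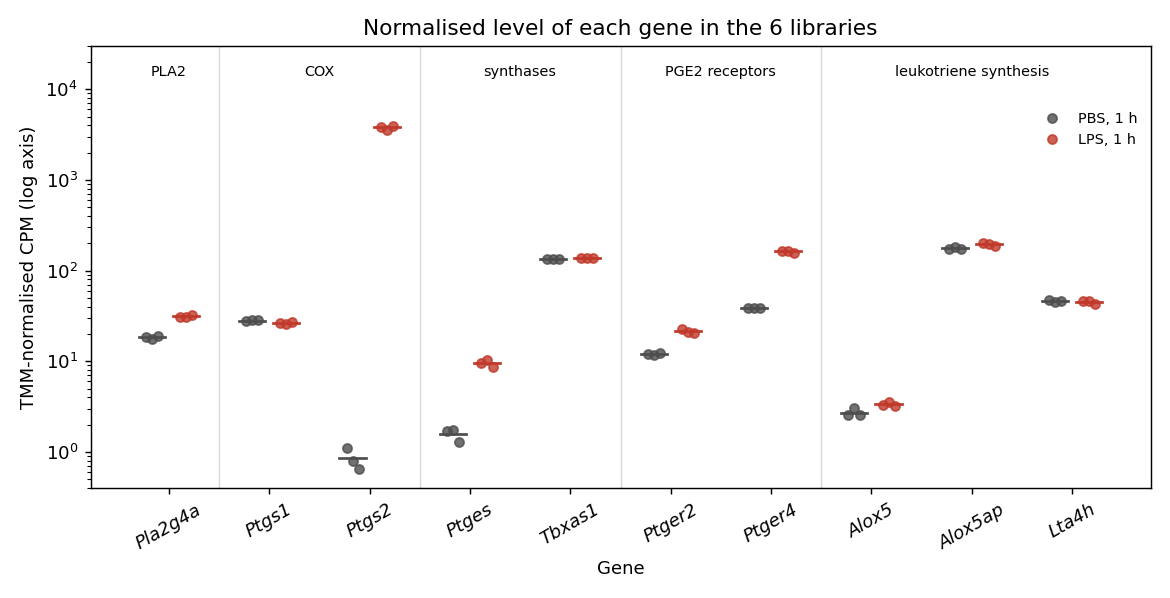
Normalised CPM (log axis) of the 10 genes in each of the 3 PBS (grey) and 3 LPS (red) libraries, with horizontal bars at the group means, ordered by role. Ptgs2 moved from the lowest position in PBS to the highest in LPS libraries, and the groups overlapped only for Lta4h.

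The start regions of the 3 genes that rose and of Ptgs1, the cyclooxygenase that did not pass the test, are shown because they are the DNA next to the sites where these transcripts begin. They are RefSeq sequences on GRCm38.p6, read 5' to 3' on the strand of the gene, and cover the 250 bases before the start and the first 30 bases of the transcript. Capitals mark matches to any of 6 motifs searched on both strands: the NF-kB consensus by name, the CRE core TGACG, the AP-1 site TGANTCA, the E-box CACGTG, the GC box GGGCGG and the TATA motif TATAAA.
Ptgs2, chr1:150099781-150100060, plus strand: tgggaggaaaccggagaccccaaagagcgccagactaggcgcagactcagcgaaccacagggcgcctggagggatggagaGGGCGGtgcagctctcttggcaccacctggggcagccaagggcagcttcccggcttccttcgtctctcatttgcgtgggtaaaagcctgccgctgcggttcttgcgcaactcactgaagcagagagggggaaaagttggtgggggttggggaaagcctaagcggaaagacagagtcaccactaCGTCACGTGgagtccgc
Ptgs1, chr2:36230176-36230455, plus strand: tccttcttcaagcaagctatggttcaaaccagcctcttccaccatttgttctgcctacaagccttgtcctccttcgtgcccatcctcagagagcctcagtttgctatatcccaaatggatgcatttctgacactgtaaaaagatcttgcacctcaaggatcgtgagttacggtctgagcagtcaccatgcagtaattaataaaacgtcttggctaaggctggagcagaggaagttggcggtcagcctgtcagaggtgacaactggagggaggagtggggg
Ptges, chr2:30903268-30903547, minus strand: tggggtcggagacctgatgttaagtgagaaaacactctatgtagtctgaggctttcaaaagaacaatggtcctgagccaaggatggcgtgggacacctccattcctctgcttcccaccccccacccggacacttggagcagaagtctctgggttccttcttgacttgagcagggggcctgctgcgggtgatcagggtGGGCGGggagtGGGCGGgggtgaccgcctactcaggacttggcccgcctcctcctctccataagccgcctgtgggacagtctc
Ptger4, chr15:5244158-5244437, minus strand: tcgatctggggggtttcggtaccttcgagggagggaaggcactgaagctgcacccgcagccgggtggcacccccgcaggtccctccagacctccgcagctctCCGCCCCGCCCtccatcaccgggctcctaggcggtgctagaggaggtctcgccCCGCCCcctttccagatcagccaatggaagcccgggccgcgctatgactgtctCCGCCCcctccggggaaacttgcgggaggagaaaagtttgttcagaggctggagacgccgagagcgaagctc

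In the Ptgs2 window, a GC box lay 170 to 165 bases before the start. A CRE core on the opposite strand lay at bases 14 to 18 counted from the RefSeq start and overlapped an E-box at bases 17 to 22. Starts beyond those of RefSeq were not examined. The Ptges window held 2 GC boxes and the Ptger4 window 4, of which the 2 farthest from the start share a base, and the Ptgs1 window held no match. The GC content of the windows was 61.4% for Ptgs2, 49.6% for Ptgs1, 59.6% for Ptges and 66.8% for Ptger4. Of 32851 promoters cut to the same length, 34.7% held a GC box, 19.9% a CRE core, 13.1% the TATA motif, 7.94% the NF-kB consensus, 7.46% the AP-1 site and 6.79% the E-box. Windows were found for 9 of the 10 genes, with Alox5ap as the exception, and none of their 10 windows held the NF-kB consensus. These letters mark matches within a short window and are no evidence of a bound factor.

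Pla2g4a, encoding cytosolic phospholipase A2 alpha, which frees arachidonic acid from membranes, lies on the minus strand at chromosome 1, 149829618 to 149961290. It had 892, 802 and 881 counts in PBS libraries 1, 2 and 3 and 1025, 1003 and 1100 in LPS libraries 1, 2 and 3. In normalised CPM this was 18.7, 17.7 and 19.1 against 30.5, 30.7 and 32.3. All LPS libraries were above all PBS libraries. The mean level was 18.5 ± 0.694 CPM (SD, n = 3) in PBS and 31.2 ± 0.976 CPM in LPS. The log2 fold change was 0.75 ± 0.05 (SE) with an adjusted p of 3.62e-10, so it passed the p criterion but not the fold criterion. The log2 ratio was 0.71, 0.79 and 0.76 in batches 1, 2 and 3, as the labels number the replicates. With libraries scaled by their size alone, which shifts the median of all tested genes by -0.40, its log2 fold change was 0.35.

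Next, the 2 cyclooxygenases, which catalyse the same reaction, were compared. Ptgs1, the cyclooxygenase that many tissues express constitutively, lies on the plus strand at chromosome 2, 36230426 to 36252272. Its counts were 1317, 1281 and 1300 in PBS and 894, 836 and 921 in LPS libraries, which after scaling gave 27.6, 28.3 and 28.2 CPM against 26.6, 25.6 and 27.0 CPM. The LPS values lay just below the PBS values without overlap. The means were 28.0 ± 0.361 and 26.4 ± 0.744 CPM, and the log2 fold change of -0.09 ± 0.05 did not pass the test (adjusted p = 0.116). It passed the p criterion under other scalings, at -0.49 with library size alone (adjusted p = 4.36e-08) and -0.23 with upper quartile scaling (adjusted p = 0.000314), and never the fold criterion. Its exons share 148 of 3884 bp with Gm43621 on the opposite strand, and the strand setting used in counting is not given in the sources used here.

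Ptgs2, the inducible cyclooxygenase, lies on the plus strand at chromosome 1, 150100031 to 150108227. The PBS libraries held 53, 36 and 30 counts and the LPS libraries 129810, 116896 and 135151. Normalised, the values were 1.11, 0.796 and 0.650 CPM against 3866, 3579 and 3969 CPM. The PBS libraries thus differed among themselves by more, in proportion, than the LPS libraries, and the groups were far apart. The mean rose from 0.853 ± 0.236 to 3805 ± 202 CPM, a log2 fold change of 12.11 ± 0.09 (adjusted p = 4.99e-24) or 4430-fold. The log2 ratio was 11.76, 12.13 and 12.58 in batches 1, 2 and 3, a wider spread than the SE, which was derived from the F statistic. The fold change stayed between 11.95 and 12.35 on the log2 scale when any 1 library was left out. Ptgs2 took 9.8e-05% of the counts of the PBS libraries and 0.331% of those of the LPS libraries on average. Ranked by CPM per kb of exon among the tested genes, it was 14192 of 15687 in PBS and 47 in LPS. No annotated gene overlaps it.

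Within a library, a ratio of 2 genes does not depend on how the libraries are scaled. The ratio of Ptgs2 to Ptgs1 counts per kb of exon was 0.0344, 0.0242 and 0.0199 in PBS and 123, 119 and 124 in LPS libraries. Ptgs1 was therefore the more abundant cyclooxygenase transcript in every PBS library and Ptgs2 in every LPS library. On the log2 scale the ratio was -5.29 ± 0.40 in PBS and 6.93 ± 0.04 in LPS, a difference of 12.22. The exact two-sided permutation test over the libraries gave p = 0.1, the smallest value that 3 against 3 libraries allow, for this and each of 3 other ratios, and 0.1 after adjustment over the 4.

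The 3' untranslated region of Ptgs2 is known for AU-rich elements, which mark many short-lived cytokine and immediate early messages for decay. The pentamer ATTTA was counted in 1 GENCODE M21 transcript per gene, the coding transcript with the longest 3' untranslated region. This gave 14 in the 2445 bp of that region in Ptgs2-201. The median over 12070 tested coding genes was 2 and 2.83% of them had as many as Ptgs2 or more. The densest stretch of 30 bases, at positions 2024 to 2053 of the transcript, is shown with its 4 pentamers in capitals.
Ptgs2-201, 3' untranslated region: ATTTATTTATTTAtgtgaagaATTTAattt
Ptger2 had 6 pentamers, Ptger4 5 and Pla2g4a 4, while Tbxas1, Alox5 and Alox5ap had 2 each. These counts are not corrected for the length of the region. Per kb, Pla2g4a had the most at 9.03, before Ptgs2 at 5.73, Alox5ap at 4.77 and Ptger4 at 4.06. Ptger2 was at 3.29, Alox5 at 3.12 and Tbxas1 at 2.56 per kb. Ptgs1, Ptges and Lta4h had 0, so the genes that rose included Ptges, without a pentamer.

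Downstream of the cyclooxygenases stand the terminal synthases. Ptges, microsomal prostaglandin E synthase-1, converts prostaglandin H2 to prostaglandin E2 and lies on the minus strand at chromosome 2, 30889471 to 30929863. It had 81, 78 and 60 counts in PBS and 322, 336 and 298 in LPS libraries, or 1.70, 1.73 and 1.30 against 9.59, 10.3 and 8.75 CPM. PBS library 3 was the lowest of its group and LPS library 3 the lowest of the other, and the groups did not overlap. The level rose from 1.58 ± 0.239 to 9.54 ± 0.770 CPM, with a log2 fold change of 2.60 ± 0.12 (adjusted p = 1.07e-12) or 6.04-fold, and of 2.47 to 2.66 with any 1 library left out. The RefSeq start shown above lies inside the annotated span of the gene. The pseudogene Gm13400 lies within that span on the same strand without sharing exons. It rose as well, from 5, 6 and 4 counts to 13, 20 and 23, with a log2 fold change of 2.34 ± 0.39 (adjusted p = 3.94e-05).

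Tbxas1, thromboxane A synthase, uses the same prostaglandin H2 and was the more abundant transcript of the pair. It spans 209182 bp on the plus strand at chromosome 6, 38875404 to 39084585, the longest span of the 10 genes. Its counts were 6472, 6130 and 6189 in PBS and 4652, 4494 and 4743 in LPS libraries, or 136, 136 and 134 against 139, 138 and 139 CPM. The LPS values lay above the PBS values by a margin of about the spread within each group. The log2 fold change was 0.03 ± 0.03 (adjusted p = 0.334) and turned to -0.37 with library size alone (adjusted p = 7.32e-09) and to -0.11 with upper quartile scaling (adjusted p = 0.005). The ratio of Ptges to Tbxas1 per kb of exon was 0.0291, 0.0296 and 0.0226 in PBS and 0.160, 0.173 and 0.146 in LPS libraries, 5.92-fold higher by the means of the log2 values (exact permutation p = 0.1, two-sided). Tbxas1 thus stayed above Ptges per kb in all 6 libraries.

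**Figure D2:**
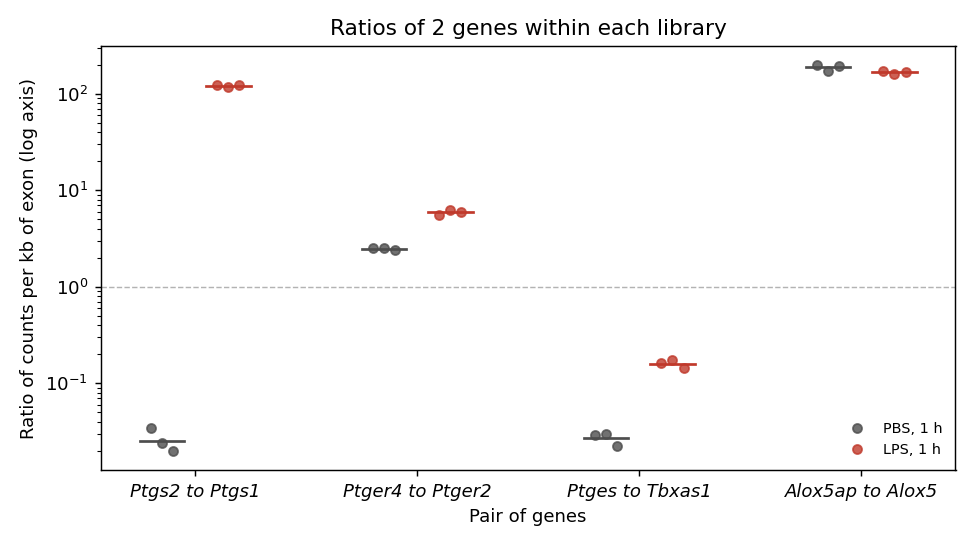
Ratio of counts per kb of exon (log axis) for 4 pairs of genes in each PBS (grey) and LPS (red) library, with bars at the group means of the log values and a dashed line at a ratio of 1. Only the ratio of Ptgs2 to Ptgs1 crossed the line, from 0.0199 to 0.0344 in PBS to 119 to 124 in LPS libraries.

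Prostaglandin E2 acts on a family of receptors, of which Ptger2 (EP2) and Ptger4 (EP4) both couple to a rise in cyclic AMP. Ptger4 lies on the minus strand at chromosome 15, 5206661 to 5244187. The PBS libraries held 1850, 1735 and 1769 counts and the LPS libraries 5464, 5427 and 5387, which corresponds to 38.8, 38.4 and 38.3 against 163, 166 and 158 CPM. The 3 PBS values lay within 1 CPM of each other and all LPS values were far above them. The level rose from 38.5 ± 0.280 to 162 ± 4.0 CPM, a log2 fold change of 2.08 ± 0.04 (adjusted p = 4.35e-19) or 4.22-fold. The pseudogene Gm15937, on the opposite strand, shares 1015 of the 6648 exonic bp of Ptger4. It fell from 36, 44 and 32 counts to 5, 6 and 10, with a log2 fold change of -1.93 ± 0.32 (adjusted p = 4.41e-05), and the way reads in the shared stretch were assigned is not given in the sources used here.

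Ptger2 lies on the plus strand at chromosome 14, 44988195 to 45003820. It had 571, 533 and 576 counts in PBS and 769, 680 and 701 in LPS libraries, or 12.0, 11.8 and 12.5 against 22.9, 20.8 and 20.6 CPM. LPS library 1 was the highest, and the groups did not overlap. The mean was 12.1 ± 0.353 CPM in PBS and 21.4 ± 1.27 CPM in LPS, with a log2 fold change of 0.83 ± 0.06 (adjusted p = 1.54e-09) that stayed below the fold criterion, and 0.42 with scaling by library size alone. The antisense gene Gm17173, which shares 246 of the 5193 exonic bp of Ptger2, rose from 3, 4 and 7 counts to 11, 24 and 31, with a log2 fold change of 2.67 ± 0.45 (adjusted p = 4.77e-05). The ratio of Ptger4 to Ptger2 per kb of exon was 2.53, 2.54 and 2.40 in PBS and 5.55, 6.23 and 6.00 in LPS libraries. Ptger4 was the more abundant of the 2 receptor transcripts in all 6 libraries, and the difference of 1.25 on the log2 scale was larger than the SDs of 0.05 and 0.09 within the groups (exact permutation p = 0.1, two-sided).

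The 3 leukotriene genes had small fold changes, none of which passed both criteria, with a median of 0.13 on the log2 scale. Alox5, which encodes 5-lipoxygenase, lies on the minus strand at chromosome 6, 116410077 to 116461178. Its counts were 121, 138 and 118 in PBS and 112, 115 and 109 in LPS libraries, or 2.54, 3.05 and 2.56 against 3.34, 3.52 and 3.20 CPM. The highest PBS library, number 2, came close to the lowest LPS library. The log2 fold change was 0.30 ± 0.12 (adjusted p = 0.0364). It was -0.10 (adjusted p = 0.457) when libraries were scaled by size alone, and in DESeq2's test the adjusted p was 0.0912 and with any 1 library left out it lay between 0.0151 and 0.113.

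Alox5ap encodes FLAP, the membrane protein that presents arachidonic acid to 5-lipoxygenase, and lies on the plus strand at chromosome 5, 149264767 to 149288153. It had 8322, 8301 and 7946 counts in PBS and 6702, 6388 and 6354 in LPS libraries, or 175, 184 and 172 against 200, 196 and 187 CPM. PBS library 2 and LPS library 3 came close to each other without overlap. The log2 fold change was 0.13 ± 0.04 (adjusted p = 0.00351) and turned to -0.27 with scaling by library size alone and to -0.01 with upper quartile scaling. Its exons share 189 of 1420 bp with the antisense gene Gm19719. The ratio of Alox5ap to Alox5 per kb was 198, 173 and 194 in PBS and 172, 160 and 168 in LPS libraries, so that the helper protein's transcript was over 100 times as abundant per kb as that of the enzyme in every library. The groups did not overlap, and the log2 ratio differed by -0.18 between groups with SDs of 0.10 in PBS and 0.05 in LPS (exact permutation p = 0.1, two-sided).

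Lta4h, leukotriene A4 hydrolase, lies on the plus strand at chromosome 10, 93453411 to 93484875. Its counts were 2253, 2046 and 2140 in PBS and 1541, 1506 and 1471 in LPS libraries, or 47.3, 45.3 and 46.4 against 45.9, 46.1 and 43.2 CPM. It was the only gene of the 10 whose groups overlapped, and the log2 fold change of -0.04 ± 0.04 did not pass the test (adjusted p = 0.424). It was -0.44 with library size alone (adjusted p = 2.74e-08) and -0.18 with upper quartile scaling (adjusted p = 0.000871). Of the 9 genes without overlap, 8 were higher and 1 lower in LPS libraries, while 70.5% of all tested genes had groups that did not overlap. Within the 3 batches, the ratio of LPS to PBS had the same sign in each for 9 of the 10 genes. These were the genes without overlap, for which no pairing of libraries could give another sign, so this count adds nothing further. The log2 ratios of Lta4h were -0.04, 0.03 and -0.10 in batches 1, 2 and 3, those of Ptges 2.50, 2.58 and 2.75, and those of Ptger4 2.07, 2.11 and 2.05.

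**Figure D3:**
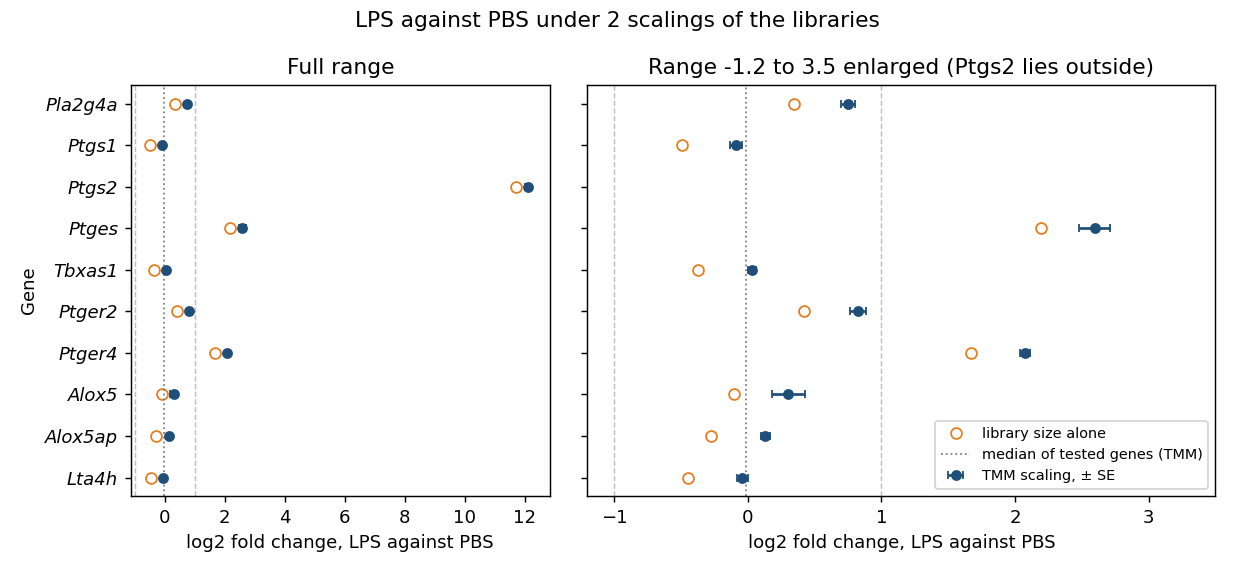
Log2 fold change of the 10 genes, LPS against PBS, with TMM scaling (filled, ± SE) and with library size alone (open). Dashed lines mark the fold criterion of 1 and the dotted line the median of all tested genes; only Ptgs2, Ptges and Ptger4 lay beyond the criterion under both scalings, and Tbxas1, Alox5 and Alox5ap changed sign.

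The order of the transcripts, on the scale of normalised CPM per kb of exon, differed between the groups. In PBS libraries it ran from Alox5ap at 125 ± 4.26 through Tbxas1 at 14.9 ± 0.107, Lta4h at 7.59 ± 0.166, Ptgs1 at 7.22 ± 0.0929, Ptger4 at 5.79 ± 0.0421, Pla2g4a at 2.90 ± 0.109, Ptger2 at 2.33 ± 0.0681, Alox5 at 0.662 ± 0.0710 and Ptges at 0.401 ± 0.0608 to Ptgs2 at 0.186 ± 0.0516. In LPS libraries it ran from Ptgs2 at 831 ± 44.1 through Alox5ap at 137 ± 4.69, Ptger4 at 24.4 ± 0.602, Tbxas1 at 15.2 ± 0.0922, Lta4h at 7.39 ± 0.266, Ptgs1 at 6.80 ± 0.192, Pla2g4a at 4.88 ± 0.153, Ptger2 at 4.13 ± 0.245 and Ptges at 2.43 ± 0.196 to Alox5 at 0.817 ± 0.0392. No neighbours in either order overlapped over their 3 libraries. The closest in proportion were Lta4h and Ptgs1, with 7.42 to 7.75 against 7.12 to 7.30 in PBS and 7.08 to 7.56 against 6.59 to 6.96 in LPS libraries. On this scale the 3 genes that rose thus held positions 10, 9 and 5 of 10 in PBS (Ptgs2, Ptges and Ptger4). In LPS they held positions 1, 9 and 3. The lack of overlap covers the spread between libraries and not the choice of length. Merged exons measured 9094 bp for Tbxas1, 6648 bp for Ptger4 and 3884 bp for Ptgs1. The transcripts used above for counting pentamers measured 1427, 3312 and 2867 bp. They were chosen by their 3' untranslated region, which made up 781 of the 1427 bp for Tbxas1, so they need not be the main transcripts. With these lengths Ptger4 would lie below Tbxas1 in LPS and above Ptgs1 in PBS libraries, so its position depends on the length used. The order of all 10 genes with transcript lengths was not tested.

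Around Ptgs2, the annotation places a processed transcript, Ptgs2os, and a lincRNA, Ptgs2os2, on the opposite strand. Ptgs2os, at 150074873 to 150099963, is separated from the Ptgs2 start by 67 bp, runs away from it and had 0 counts in all PBS libraries against 61, 62 and 85 in the LPS libraries. The mean LPS level of Ptgs2os was 32.0 times the floor of 3 counts per library. The rise was thus at least 32.0-fold if the PBS level lay at or under that floor, which covers counting error only. The edgeR test of LPS against PBS gave an adjusted p of 3.25e-10. Ptgs2os2 lies 50815 bp beyond the other end of Ptgs2 and rose from 5, 7 and 2 to 585, 517 and 561 counts. Its log2 fold change was 7.32 ± 0.17 (adjusted p = 4.29e-17). The log2 ratio of Ptgs2os2 was 7.38, 6.68 and 8.57 in batches 1, 2 and 3, a wider spread than the SE. Reads of a gene and of a partner on the other strand can be told apart only if strand was used in counting. Pla2g4a lies on the other side of Ptgs2os, 138740 bp from Ptgs2 and on the opposite strand, and no other gene within 100 kb of it reached 10 counts in any library.

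**Figure D4:**
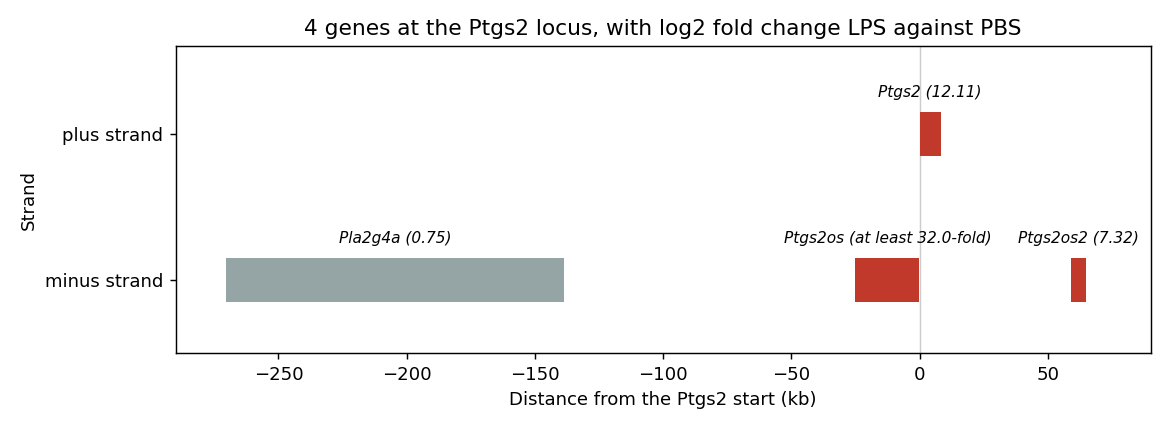
The spans of 4 genes by distance in kb from the Ptgs2 start, with the strand on the vertical axis and the log2 fold change in parentheses (for Ptgs2os, at 0 counts in PBS, a lower bound as a fold). Genes that passed both criteria are red, and Pla2g4a, at 0.75, is grey.

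Among all 39 genes within 100 kb of 1 of the 10 genes and with at least 10 counts in some library, 34 were tested, of which 5 rose and 5 fell. Over all tested genes, 10.5% rose and 10.4% fell. Beside those named above, Kdm7a, a histone demethylase gene 52037 bp from Tbxas1, rose with a log2 fold change of 1.32 ± 0.04 and was at 0.92 with scaling by library size alone. Card6, a gene of a caspase recruitment domain protein 98121 bp from Ptger4, fell by 1.72 on the log2 scale. The small nucleolar RNA Gm23010 inside Tbxas1, the unclassified transcript Gm44237 near Alox5 and the lincRNA Mm2pr near Alox5ap fell with log2 fold changes of -3.52, -1.44 and -3.57. The neighbours of Ptgs1 and Lta4h that were tested, 2 each, did not pass both criteria.

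The genes nearest to Ptgs2 across the 6 libraries, by Euclidean distance of log2 CPM, were the chemokine gene Cxcl1 at a distance of 1.16, the interleukin genes Il1b at 2.95 and Il1a at 3.21, Cxcl2 at 3.24 and Tnfsf9, which encodes the ligand of 4-1BB, at 3.88. Cxcl1 had 60, 46 and 44 counts in PBS and 86485, 81564 and 91756 in LPS libraries, or 0.953 to 1.26 CPM and 2498 to 2695 CPM. Its PBS values overlapped those of Ptgs2, and its LPS values lay below them. For Ptgs1, the member with the lowest fold change, the nearest were Dhdh at 0.0939, Kif1bp at 0.11, Pus10 at 0.120, Cdk16 at 0.122 and Mettl9 at 0.123. Their log2 fold changes lay between -0.16 and -0.06. The distance was computed on 6 libraries in 2 groups, so it describes level, the difference between groups and the scatter between libraries, and no other condition.

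To place the 10 genes within the wider pathway, 66 other genes were examined. They cover arachidonic acid release, prostanoid and leukotriene metabolism and receptors, other lipoxygenases, and receptors for lipoxins or resolvins. Of the 66 genes, 43 passed the filter and 13 had no library above 3 counts. With both criteria 1 rose and 1 fell, beside 10.5% and 10.4% of all tested genes, and the median log2 fold change was 0.06. Without the fold criterion, 13 were higher, 10 lower and 20 did not pass at an adjusted p under 0.05. Of all tested genes, 32.9% were higher and 34.9% lower by that criterion. Gpr18, a receptor linked to resolvin D2, a lipid that helps end inflammation, rose from 41, 40 and 34 to 59, 75 and 75 counts. Its log2 fold change was 1.33 ± 0.18 (adjusted p = 3.80e-06), and 0.93 with scaling by library size alone. Mgst2, a microsomal glutathione transferase that can make leukotriene C4, fell from 41, 40 and 37 to 14, 14 and 13 counts, with a log2 fold change of -1.05 ± 0.25 (adjusted p = 0.00122). The groups did not overlap for either gene in normalised CPM, and neither passed when edgeR tested directly for a log2 difference beyond 1.

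By class, 0 of 16 tested phospholipases and lipid-handling genes passed both criteria, 0 of 6 other prostanoid synthases, 0 of 3 other prostanoid receptors, 0 of 5 genes of prostaglandin export, uptake and breakdown, 1 of 6 genes of cysteinyl leukotriene steps, 0 of 3 leukotriene receptors and 1 of 4 other lipoxygenases and receptors for lipoxins or resolvins. Median log2 fold changes were 0.25 for the other prostanoid receptors, 0.11 for the genes of prostaglandin export, uptake and breakdown and -0.68 for the leukotriene receptors. Of the 3 tested leukotriene receptors, 1 was lower by the adjusted p alone. The following examples were chosen after their values were seen and do not cover every class. Acsl4, which activates arachidonic acid for its return to phospholipids, was at 151 CPM in PBS and 268 CPM in LPS libraries, a log2 fold change of 0.83 ± 0.04. Hpgds, the hematopoietic prostaglandin D synthase, was far more abundant than Ptges in counts, with 14935 to 16587 in PBS and 9782 to 10872 in LPS libraries, and its log2 fold change was -0.12 ± 0.04. Of the other prostaglandin E synthases, Ptges2 had a log2 fold change of -0.63 ± 0.10 and Ptges3, also known as the HSP90 co-chaperone p23, of 0.39 ± 0.04, so neither reached the size of Ptges. Abcc1, an exporter of leukotriene C4, was at 185 CPM in PBS and 317 CPM in LPS libraries, and its log2 fold change was 0.78 ± 0.03. Ltc4s, leukotriene C4 synthase, had 213, 209 and 161 counts in PBS and 182, 147 and 153 in LPS libraries and did not pass the test (adjusted p = 0.164). Alox15, the lipoxygenase found in some resident macrophages, had at most 8 counts in any library.

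**Figure D5:**
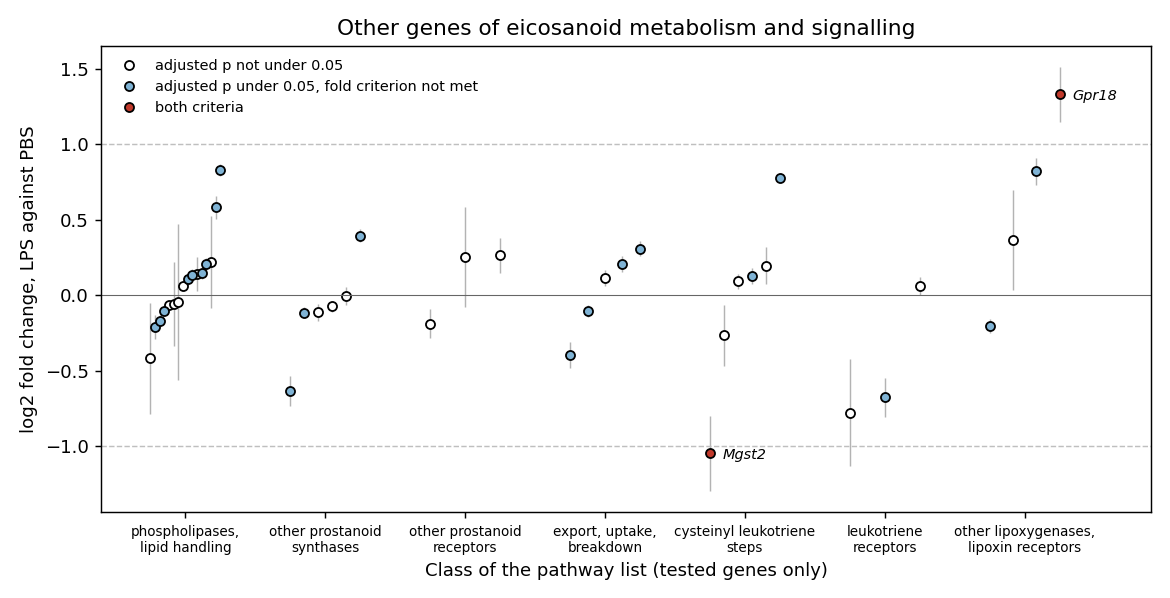
Log2 fold change (± SE), LPS against PBS, of the 43 tested genes of the wider pathway by class, with dashed lines at the fold criterion of 1. Only Gpr18 at 1.33 and Mgst2 at -1.05 passed both criteria (red).

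Several of these genes are also expressed by other cells that bone marrow cultures could hold. Summed over 8 neutrophil markers, of which Ly6g was at or under the floor in all libraries, the level was 43.9 to 47.0 CPM in PBS and 57.7 to 61.9 CPM in LPS libraries, and no marker passed both criteria. For 7 markers of mast cells and basophils, with Mcpt4 and Tpsb2 at or under the floor, the sum was 5.92 to 7.08 against 10.3 to 11.1 CPM, again with no marker past both criteria. For 7 platelet markers, with Gp1bb at or under the floor, the sum was 6.07 to 6.74 against 6.14 to 7.53 CPM. These are the cell types best known for Alox5, Alox5ap, Hpgds and Tbxas1. Fibroblast markers, of which 1 of 7, Pdgfrb, rose, summed to 14.9 to 16.1 against 18.2 to 21.2 CPM, and lymphocyte markers, 7 in all, to 0.863 to 1.26 against 1.22 to 1.64 CPM. Of 6 dendritic cell markers 5 rose. The sum of all 6 was 88.3 to 97.9 against 102 to 104 CPM, most of it from Itgax, which did not pass both criteria, and the sum of the 5 that rose was 3.32 to 4.22 against 10.0 to 11.0 CPM. The part of these cells in the levels of the 10 genes was not tested.

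The length of the genomic span is a property that the choice of the genes did not use. The 3 genes that rose span 8197, 40393 and 37527 bp (Ptgs2, Ptges and Ptger4). Pla2g4a and Tbxas1 span over 100 kb, and among the 1514 tested coding genes of that length 9.91% rose and 1.06% fell, with a median log2 fold change of 0.23. Of 2948 coding genes under 10 kb, as Ptgs2 is, 9.74% rose and 11.7% fell, with a median of -0.10. Of 5891 coding genes of 10 to 50 kb, as Ptges and Ptger4 are, 8.23% rose and 8.56% fell, with a median of -0.08. The values by length are given as a description of the table.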

How the data were processed

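Gene counts of 6 libraries of total RNA from BMDMs (3 PBS, 3 LPS) were analysed. The authors prepared libraries with a stranded total RNA kit, checked the reads with FastQC 0.11.9, aligned them to GRCm38 with HISAT2 2.1.0, used SAMtools 1.17, and counted them per gene with featureCounts 2.0.0. The deposited values are these raw counts. The annotation release, strand setting and handling of multi-mapping reads are not given in the sources used here, so genes that overlap others are uncertain. Of 55335 identifiers, 54587 equal those of GENCODE M21, 55154 match without the version suffix and 181 have no symbol. Coordinates are from that release, counted from 1.

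Counts were tested in R 4.3.3 with edgeR 4.0.16 (filterByExpr, TMM scaling, quasi-likelihood test, Benjamini-Hochberg adjustment over all tested genes). The thresholds were an adjusted p of 0.05 and an absolute log2 fold change of 1. SEs were derived from the F statistic, as the absolute log2 fold change divided by the square root of F. They can be too small for genes with few counts in a group. A floor of 3 counts equalled 0.0630 to 0.0919 CPM. Ratios within libraries were compared by exact permutation over the 20 splits, with 0.5 added to counts, and distances used log2 CPM with a prior count of 2. CPM per kb used the merged exons of a gene. Named genes were the 10 genes, genes of the wider list that passed the test, neighbours within 100 kb that passed it, and the 5 nearest genes to the members with the highest and lowest fold change. Other genes of the wider list and the markers that are named were chosen outside this rule, the former after their values were seen. Of 67 symbols of the wider list, Dpep2 named more than 1 row and was left out. The members and lists were chosen with earlier results of these data known. The functions were tested on simulated data first.

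The labels carry a batch number equal to the replicate number, and the samples were paired by it. The correlation of deviations from the group means was -0.0139 to 0.0822 for same-numbered and -0.0817 to 0.0446 for other pairs. The main model had no block, and a fit with the replicate block was run beside it. Replicates of a group differed beyond counting noise (chi-square of 5.44 to 20.5 per gene). Alternatives were DESeq2 1.42.0 and its size factors, limma 3.58.1 voom, scaling by library size or upper quartile, TMM without the 10 most abundant genes, other filters, no fold criterion, a test against the fold criterion, and each library left out in turn.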

Additional observations from a re-analysis of the deposited data

How the results depend on the processing

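Over the alternatives, 145 values of the 10 genes kept their direction and whether both criteria together were met, and 5 reversed. The p criterion alone was less stable: Alox5 missed it under 9 alternatives (5 of them leaving out 1 library), and Ptgs1, Tbxas1 and Lta4h passed it, all negative, with library size alone and upper quartile scaling. With library size alone the log2 fold changes were -0.37 for Tbxas1, -0.10 for Alox5 and -0.27 for Alox5ap, and with upper quartile scaling -0.11 for Tbxas1 and -0.0094 for Alox5ap. Library size alone moves the median of all tested genes by -0.40 and upper quartile scaling by -0.14. With the replicate block, 3 members were called higher, the log2 fold change of Ptgs2 was 12.11, and none of the 66 results computed under it changed its call or direction.

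The number of members called higher was 7 without the fold criterion, with 0 lower. With library size alone in addition, 5 were higher and 4 lower at an adjusted p under 0.05. For the wider list, 0 genes were called higher and 4 lower (Ptges2, Mgst2, Ltb4r1, Cysltr2) with library size alone. With no filter beyond 1 count, 2 were called higher (Aloxe3 added) and 2 lower (Pla2g4b added). Without the fold criterion 13 were higher and 10 lower. Against a log2 fold change of 1 with glmTreat, 0 were called in either direction, as Gpr18 and Mgst2 lie close to that limit. Leaving out 1 library gave 1 to 2 lower calls, the second being Ltb4r2 (-1.62) without LPS replicate 1. Over all genes, 1653 were called higher and 1624 lower. Calls were 5159 higher and 5467 lower without the fold criterion, 2962 lower with library size alone, 1027 lower with at least 10 counts in every library and 922 lower with glmTreat. The cause of these shifts was otherwise not tested.

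Among neighbours and nearest genes, library size alone turned BC005624 to -0.33, Rpl37 to -0.16, Snord72 to -0.40, Gm10250 to -0.27 and Snrpf to -0.0129, brought Kdm7a to 0.92 and Gpr18 to 0.93, and put Asb6 at -1.02 and Zfand4 at -1.08. Upper quartile scaling turned BC005624 to -0.0688, Snord72 to -0.14 and Gm10250 to -0.0118. Snord72 was at -0.0062 without the 10 most abundant genes, -0.0233 with no filter beyond 1 count, -0.0155 with at least 10 counts in every library, and between -0.20 and 0.21 with any 1 library left out. Hmgb1 lay between -0.0847 and 0.0266 with any 1 library left out. The depth limits the PBS level of Ptgs2, at 30 to 53 counts, and the fold change of Ptgs2os, at 0.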
